A study of Mus musculus with 6 samples.

Results

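Interferon regulatory factors (IRFs) are a family of transcription factors, and 8 of their genes, Irf1, Irf2, Irf3, Irf4, Irf5, Irf7, Irf8 and Irf9, were followed here by name among 53618 named rows of a bulk RNA-seq table. The cells were GFP+Lin-c-Kit+ splenocytes from mice carrying Usp18+/f UBCER-Cre AE9a leukemia. AE9a, a shortened form of the AML1-ETO fusion, causes acute myeloid leukemia in mice, and GFP marks the cells that received it. In both groups, fetal liver cells of Usp18+/f UBCER-Cre genotype had been transduced with AE9a and passed through a second transplantation into irradiated C57BL/6 wild-type recipients of both sexes, 8 to 12 weeks old. Once sick, 3 mice received oil and 3 received tamoxifen, and the cells were sorted 3 days after the first injection, giving 1 library per mouse. The Cre is expressed widely from the ubiquitin C promoter and is active only with tamoxifen, so the oil group carried the same floxed allele and the same Cre without the drug. Tamoxifen itself was given to 1 group alone, so an effect of the drug and an effect of deletion cannot be told apart, and the recipients kept their own wild-type cells.

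IRFs share a DNA-binding domain that reads repeats of the letters GAAA. Irf3, Irf5 and Irf7 are switched on by kinases downstream of sensors of nucleic acids and microbes and drive interferon genes. Irf9 joins STAT proteins, STAT2 among them, in ISGF3, the complex that carries the type I interferon signal to interferon-stimulated genes (ISGs). Irf1 activates and Irf2 mostly represses overlapping targets, while Irf4 and Irf8 direct lymphoid and myeloid development together with partners such as PU.1. Usp18 dampens signaling from the type I interferon receptor, and the comparison asks how the loss of 1 Usp18 allele bears on the genes of this pathway.

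The libraries held 19172471 to 23785143 reads over all rows. Usp18, the targeted gene, was higher in the libraries labelled tamoxifen, where loss of 1 allele was intended. It had 477, 329 and 284 normalized counts (reads divided by 1 size factor per library) there, against 217, 214 and 176 in oil. Its log2 fold change was 0.81 (SE 0.25, adjusted p = 0.666 by limma), or 0.60 (SE 0.15, adjusted p = 0.181) without the library labelled tamoxifen 1. With limma library weights it was 0.52 and passed, at an adjusted p of 0.0348. Reads of both alleles were counted together, so these values do not show whether 1 allele was lost. Directions below are between libraries labelled tamoxifen and oil. In sorted cells of this model, the paper reports enriched interferon gene sets after deletion by bulk RNA-seq. It also reports a raised interferon response by qRT-PCR and western blot. Most ISGs listed below were also higher in the libraries labelled tamoxifen. An exchange of labels was not tested. The library labelled tamoxifen 1 stood apart: its median correlation with the other libraries was 0.913, against 0.981 to 0.990 for the rest, and 0.00923% of its reads were mitochondrial, against 1.01% to 1.56%. The fold changes of the members are therefore given with and without it. In tamoxifen 1 genes stood higher the richer their exons were in G and C: across 12150 genes, the Spearman rho of GC content with the deviation from the gene median was 0.687, against -0.222 to -0.0019 in the other libraries. Of the markers of the labelled cell, Kit was at 4687 to 10976 normalized counts and Gata2 at 8872 to 13302, whereas Ptprc (CD45) was at 0.898 to 8.08 and Mpo at 0 to 20.2, near 0 for both. Of 8 such markers 6 were tested. Myb and Runx1 were lower in each library labelled tamoxifen than in every oil library (9.69% of all tested genes), and 0 of the 6 were higher. Their log2 fold changes were -0.40 and -0.18, or -0.16 and -0.13 without tamoxifen 1.

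The members differ in the letters just before their transcription starts. Promoters of RefSeq (GRCm38.p6, 250 bases before to 50 after each start) were found for all 8 members, 11 promoters in all, among 32851 in the table. On both strands, the letters GAAANNGAAA of an interferon-stimulated response element (ISRE), bound by ISGF3 and IRFs, stood in 3.44% of all these promoters. The letters TTCNNNGAA of a STAT site (GAS) stood in 8.30%, and GGAANNGAAA, a joint site for PU.1 or related factors and an IRF (EICE), in 2.72%. A kappa-B consensus stood in 4.51%, and TATAAA on the gene's own strand, searched after the promoters had been seen, in 8.32%. Apart from a kappa-B match of Irf2, the following stretches hold the matches in Irf1, Irf2 and Irf8 and those of TATAAA. Matched letters are in capitals. The stretches show which members carry these letters in the windows searched.
Irf1, chr11:53769912-53769944, plus strand, GAS: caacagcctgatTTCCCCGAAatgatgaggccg
Irf1, chr11:53769989-53770013, plus strand, kappa-B: cgagtccgggccGGGGAATCCCgct
Irf2, chr8:46739495-46739541, plus strand, EICE and ISRE overlapping, then GAS: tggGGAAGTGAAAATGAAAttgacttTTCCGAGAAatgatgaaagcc
Irf8, chr8:120736175-120736225, plus strand, 2 GAS: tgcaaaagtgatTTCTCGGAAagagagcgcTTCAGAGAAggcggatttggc
Irf8, chr8:120736315-120736344, plus strand, TATAAA: ccccgccccatcTATAAAagcaggcgcgcg
Irf4, chr13:30749195-30749224, plus strand, TATAAA: cgcctccggctcTATAAAgttcctctttct
Irf7, chr7:141266436-141266465, minus strand, TATAAA: tgcccgaagtacTATAAAagcactggcacc

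The Irf1 GAS began 90 bases before the start, and the 2 of Irf8 began 171 and 153 bases before it. Irf2 held the single ISRE match of the family, 241 bases before its start, where its first letters overlap the EICE match, and a further kappa-B match not shown lay 17 bases before the start. TATAAA began 26, 29 and 31 bases before the starts of Irf4, Irf7 and Irf8. The Irf7 stretch also lies inside the first exon of a longer GENCODE transcript. None of these letters stood in the windows of Irf3, Irf5 or Irf9. A match describes the sequence and is not a measured binding site. A window without a match can still hold a site with other letters, and sites outside the windows were not searched.

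Levels of different genes were compared as RPKM, which is reads scaled for the length of the merged exons and for the named reads of the library. In the libraries labelled oil, Irf9 at 13.4 ± 1.07 RPKM (SD, n = 3) and Irf3 at 12.4 ± 0.119 led the family. Their ranges, 12.2 to 14.2 and 12.3 to 12.5, overlapped, so these neighbours did not differ beyond their spread. Irf2 followed at 8.47 ± 0.185, then Irf7 at 3.48 ± 0.720 and Irf5 at 2.92 ± 0.157, whose ranges overlapped at 2.97 to 4.30 and 2.77 to 3.08. Irf1 lay lower, at 0.835 ± 0.0530, and Irf8 was near 0 at 0.0263 ± 0.0189. Irf4 had no read in any oil library, which at 3 reads allows up to 0.0257 to 0.0274 RPKM. The libraries labelled oil held mostly Irf9, Irf3 and Irf2 transcripts of this family, and the lymphoid and myeloid members Irf4 and Irf8 were at or close to the limit of counting.

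In the libraries labelled tamoxifen the order changed at Irf7. It stood at 12.1 ± 2.58 RPKM (SD, n = 3), beside Irf9 at 16.4 ± 1.0, Irf3 at 14.5 ± 6.51 and Irf2 at 8.04 ± 1.12. Each library labelled tamoxifen had more Irf7 than Irf2 per length, and each library labelled oil had less. As a share of the summed RPKM of the 8 genes, Irf7 took 7.54%, 9.96% and 7.52% in oil against 23.1%, 20.8% and 20.1% in tamoxifen. The shares of the groups did not overlap, and an exact two-sided permutation test gave p = 0.1, the smallest that 3 against 3 libraries allow. Irf2 had a lower share in all 3 libraries labelled tamoxifen, at 10.3%, 16.6% and 16.9% against 20.5%, 19.8% and 20.9%. The share of Irf9 was 32.2% ± 1.15 in oil and 29.7% ± 5.36 in tamoxifen, with overlapping groups. The summed RPKM of the family was 41.5 ± 1.90 in oil and 56.4 ± 7.76 in tamoxifen.

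**Figure D1:**
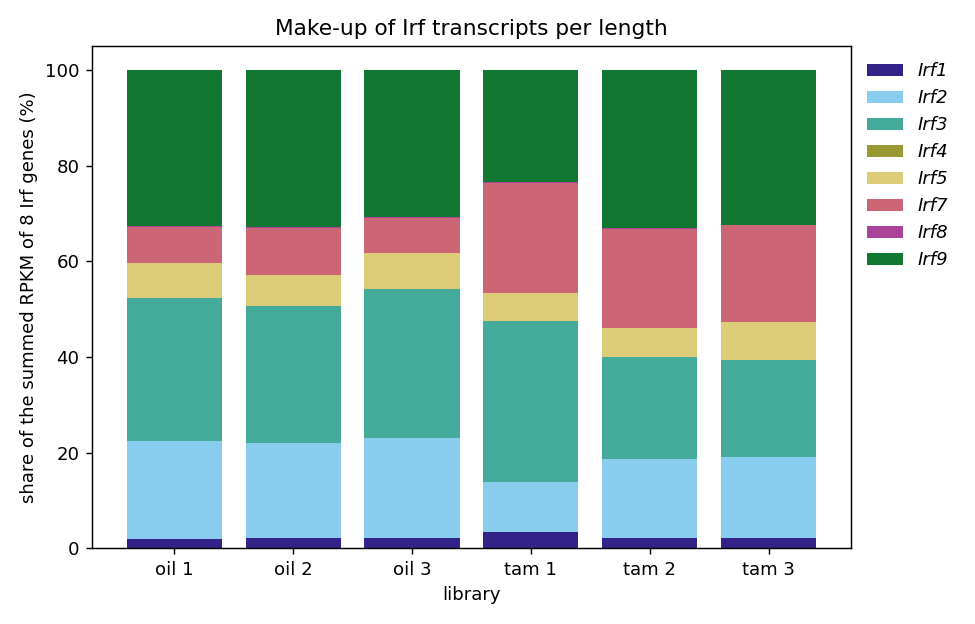
Share of the summed RPKM of 8 Irf genes (vertical axis, %) in each library (horizontal axis; tam, tamoxifen), stacked by gene. The Irf7 segment takes 7.52% to 9.96% in the 3 oil libraries and 20.1% to 23.1% in the 3 tamoxifen libraries, while Irf4 and Irf8 are too small to see.

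Irf7 showed the largest difference of the tested members. Irf7 (ENSMUSG00000025498.15, chromosome 7, 141262706 to 141266481, minus strand, GRCm38) is itself an ISG and amplifies the interferon response once its protein has been made and phosphorylated. In oil it had 255, 350 and 245 normalized counts, and in tamoxifen 1394, 890 and 824. Every library labelled tamoxifen lay above every oil library, and tamoxifen 1 was the highest. The means were 283 ± 58.0 and 1036 ± 312 (SD, n = 3), a 3.65-fold difference, or 3.02-fold without tamoxifen 1. On the log2(value + 1) scale the difference was 1.84 (SE 0.26), with a limma p of 0.000284 that became 0.426 after adjustment over 12298 genes, so the gene did not pass a threshold of 0.05 with all 6 libraries. Without tamoxifen 1 it was 1.61 (SE 0.16), with an adjusted p of 0.00277 by limma, where 0.333% of the tested genes passed. Run on recovered reads with every library, DESeq2 gave 1.87 with an adjusted p of 3.9e-06, and over every setting run the adjusted p ran from 5.9e-18 to 0.861. The value of Irf7 in these libraries was known when the members were chosen, so its choice is not independent evidence of its direction. In the exons, 1.19% of the bases are shared with Phrf1 on the opposite strand, and no source used here states whether counting used strand.

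**Figure D2:**
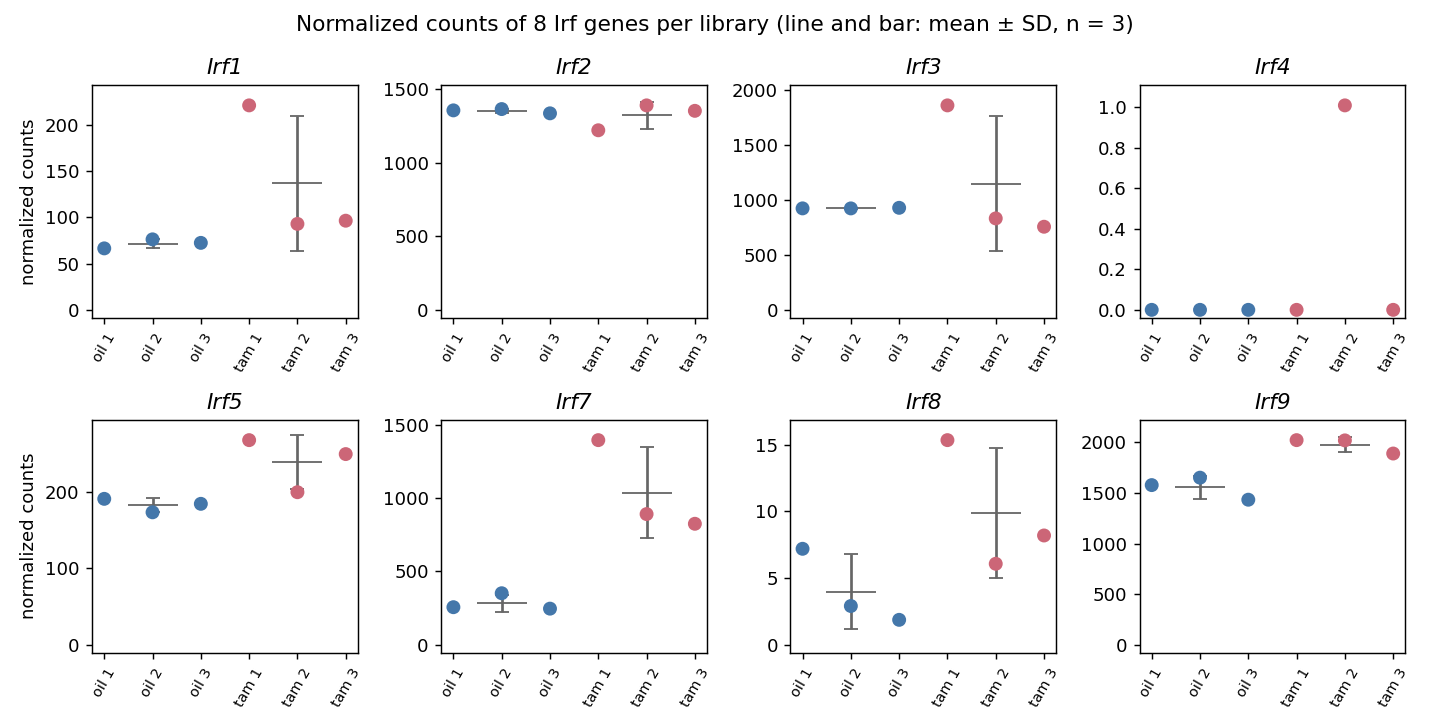
Normalized counts (vertical axes, each panel with its own scale) of 8 Irf genes in 3 oil (blue) and 3 tamoxifen (red) libraries; lines and bars are the mean ± SD, left out for Irf4, which had a single read in all. Irf1, Irf5, Irf7 and Irf9 are higher in each tamoxifen library than in every oil library, and tamoxifen 1 stands far above the other libraries for Irf1 and Irf3.

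Irf3 and Irf5 are the other members activated by sensor kinases. Irf3 (chromosome 7, 44997648 to 45002848, plus strand), which is made in most cells and switched on by phosphorylation, had 922, 921 and 927 normalized counts in oil and 1857, 830 and 755 in tamoxifen. Tamoxifen 1 was far above every other library, and the other two lay below all 3 oil libraries. The log2 fold change was 0.19 (SE 0.35, adjusted p = 0.787 by limma), and it changed sign without tamoxifen 1, to -0.22 (SE 0.09, adjusted p = 0.365). The oil libraries spread by only 0.326% around their mean, where counting error alone would give about 3.17%. The exons of Irf3 are 56.7% G or C, the most of the 8 members. After a correction of each library for GC content, the Irf3 log2 fold change was -0.04.

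Irf5 (chromosome 6, 29526625 to 29541871, plus strand), a factor of inflammatory gene expression in myeloid cells, had 191, 174 and 185 normalized counts in oil and 268, 200 and 250.1 in tamoxifen. The groups did not overlap, although oil 1 and tamoxifen 2 were close. The limma log2 fold change was 0.37 (SE 0.20, adjusted p = 0.666), and 0.29 (SE 0.15, adjusted p = 0.491) without tamoxifen 1. The exons are 55.7% G or C, and after the GC correction the log2 fold change was 0.17. Of its exon bases 14.2% are shared with Tnpo3 on the opposite strand, and without strand the reads of these genes there cannot be told apart, so its value is uncertain to that extent.

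Irf9 (chromosome 14, 55603571 to 55610030, plus strand), the DNA-binding subunit of ISGF3, had the highest mean level per length of the members in both groups, although Irf3 was above it in oil 3 and tamoxifen 1. It had 1578, 1652 and 1434 normalized counts in oil and 2023, 2021 and 1891 in tamoxifen. All 3 tamoxifen libraries were above all 3 oil libraries, and tamoxifen 1 did not stand apart from the other two. The log2 fold change was 0.35 (SE 0.13), with an unadjusted p of 0.0376 and an adjusted p of 0.666 by limma. Without tamoxifen 1 it was 0.33 (SE 0.09), with p-values of 0.00401 and 0.185. Irf9 did not pass the adjusted threshold in any setting run, and its adjusted p ran from 0.0602 to 0.861. Its exons share 2.28% of their bases with Rnf31.

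A partner of Irf9 and the genes of the receptor above it were read beside it. Stat2, the ISGF3 subunit with the activation domain, had 563, 684 and 549.7 normalized counts in oil and 1086, 669 and 667 in tamoxifen, and the groups overlapped. Its log2 fold change was 0.40 (SE 0.24), or 0.16 (SE 0.12) without tamoxifen 1. The receptor chains Ifnar1 and Ifnar2 and the kinases Jak1 and Tyk2 had log2 fold changes of -0.10, 0.32, -0.26 and 0.26, or -0.07, -0.06, -0.04 and 0.02 without tamoxifen 1. None of these 5 genes passed the adjusted threshold by limma, edgeR or DESeq2, and 0 had an unadjusted limma p under 0.05. The groups overlapped in each of them with all libraries and without tamoxifen 1. Without oil 2, Stat2 and Tyk2 were higher in tamoxifen without overlap. The share of all tested genes in that setting was not computed, so no conclusion is drawn from this count.

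Irf1 and Irf2 act on overlapping sites in opposite directions. Irf1 (chromosome 11, 53770014 to 53778374, plus strand), an interferon-induced factor that activates antigen presentation genes, had 66.5, 76.2 and 72.4 normalized counts in oil and 221, 92.9 and 96.4 in tamoxifen. The groups did not overlap, but tamoxifen 1 was far above the other two, which lay nearer to the oil libraries. The limma log2 fold change was 0.80 (SE 0.37, adjusted p = 0.666), and 0.40 (SE 0.19, adjusted p = 0.447) without tamoxifen 1. Irf2 (chromosome 8, 46739732 to 46847458, plus strand) had 1357, 1366 and 1337 normalized counts in oil and 1222, 1391 and 1354 in tamoxifen. The groups overlapped, and the log2 fold change was -0.04 (SE 0.13), the nearest to 0 of the tested members, and 0.02 (SE 0.08) without tamoxifen 1, with an adjusted p of 0.898 and 0.946 by limma. The promoters of both hold GAS and kappa-B letters, as printed above for Irf1 and for the GAS of Irf2.

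Irf4 and Irf8 were too low for the test, which needed 10 normalized counts in at least 3 libraries. Irf4 (chromosome 13, 30749226 to 30766976, plus strand), a factor of lymphocytes and plasma cells, had 0 reads in 5 libraries and 1 read in tamoxifen 2, and no fold is given. Irf8 (chromosome 8, 120736358 to 120756694, plus strand), which directs monocyte and dendritic cell development, had 8, 3 and 2 reads in oil and 12, 6 and 9 in tamoxifen. The groups overlapped. Summed over libraries, 13 reads stood against 27, a ratio of 2.27 after scaling for depth, with an exact 95% interval of 1.13 to 4.79 for counting error only, and 1.80 with an interval of 0.800 to 4.12 without tamoxifen 1. At this depth no difference in either gene could be shown against the spread between mice.

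Together, 6 of the 8 members were tested, and 0 passed an adjusted p of 0.05 by limma, as did 0 of 12298 genes (0%). At an unadjusted p under 0.05, 2 members passed, Irf7 and Irf9, both higher in tamoxifen, beside 397 genes or 3.23% in that direction. edgeR also called 0 members and DESeq2 called 1, Irf7, with 0.293% of 24246 genes called. The base of this and the other DESeq2 shares includes genes too low for an adjusted p, Irf4 among them. These shares are thus lower than they would be over genes that could be called. The groups did not overlap in 4 of the 8 members, all higher in tamoxifen, where 7.86% of all tested genes were higher without overlap and 9.69% lower. Without tamoxifen 1 the same 4 genes were higher without overlap and Irf3 was lower without overlap, beside 12.6% of genes higher and 16.8% lower. The 4 members higher without overlap come from 3 roles: Irf5 and Irf7 are activated by sensor kinases, Irf9 belongs to ISGF3, and Irf1 activates antigen presentation genes.

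**Figure D3:**
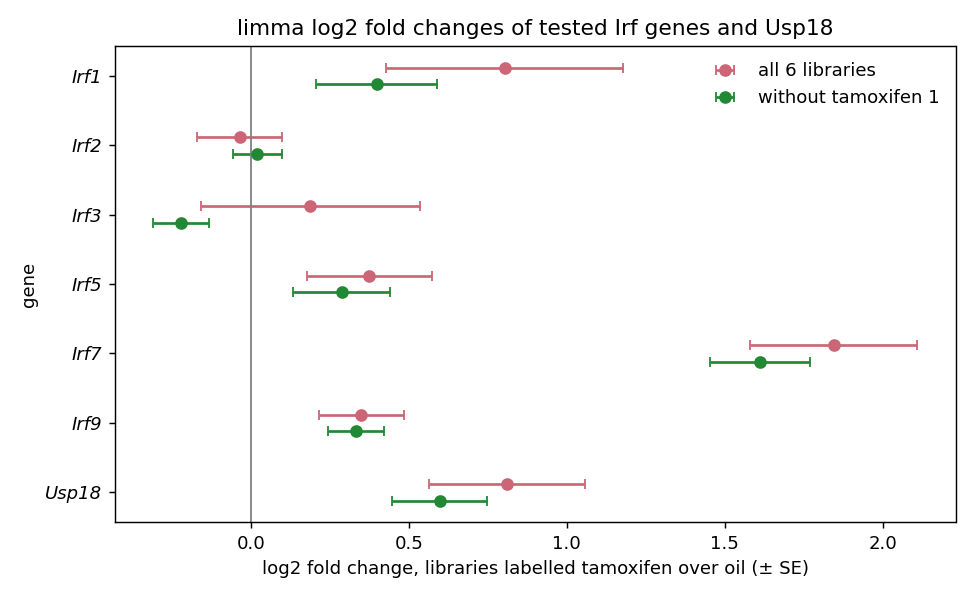
Log2 fold changes of tamoxifen over oil (horizontal axis; points with ± SE) from limma for 6 tested Irf genes and Usp18, with all 6 libraries (red) and without tamoxifen 1 (green). Irf7 lies at 1.84 and 1.61 and Irf9 at 0.35 and 0.33, while Irf3 crosses 0 from 0.19 to -0.22.

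A ratio of 2 genes within a library does not depend on library scaling. The log2 ratio of Irf7 to Irf3 reads was -1.85, -1.40 and -1.92 in oil and -0.41, 0.10 and 0.13 in tamoxifen. The groups did not overlap, and the mean difference of 1.66 was 1.70 with GC-corrected values and 1.84 without tamoxifen 1. Tamoxifen 1 had the lowest of the 3 tamoxifen ratios. The log2 ratio of Irf1 to Irf2 was -4.24 ± 0.0986 (SD, n = 3) in oil and -3.39 ± 0.805 in tamoxifen, again without overlap. It was -2.47 in tamoxifen 1 and -3.90 and -3.81 in tamoxifen 2 and 3. Its mean difference of 0.85 was 0.59 with GC-corrected values and 0.38 without tamoxifen 1. For each of the 2 ratios the exact two-sided permutation test gave p = 0.1, the smallest this design allows. The ratio of Irf9 to Stat2 was 1.38 ± 0.107 in oil and 1.33 ± 0.379 in tamoxifen, and the exact permutation p was 1. Its values in tamoxifen were 0.90 in tamoxifen 1, 1.60 in tamoxifen 2 and, in tamoxifen 3, just above the highest oil value of 1.49, and the difference of -0.05 became 0.17 without tamoxifen 1, where the other two lay above all 3 oil libraries. Over the 3 ratios, the Benjamini-Hochberg adjusted p of the first 2 was 0.15.

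The genes around the family were read in 8 lists, chosen with earlier results of these data known. With all 6 libraries no gene of any list passed the adjusted threshold by limma without library weights or by edgeR. With limma library weights, 3 of 17 tested genes of the sensor list, 12 of 22 ISGs that had not passed the filter through tamoxifen alone and 3 of 14 Irf1 targets passed, all higher in tamoxifen, beside 6.36% of all tested genes in either direction and 3.82% in that direction. Upstream of Irf3, Irf5 and Irf7, 17 of 23 sensors, adaptors and kinases were tested, of which 4 were higher and 3 lower without overlap, beside 7.86% and 9.69% of all tested genes. DESeq2 also called 0 of them, 3 had an unadjusted limma p under 0.05 and were higher (3.23% of all tested genes), and limma without tamoxifen 1 called 0. Library weights called Ikbke, Traf3 and Ddx58, and DESeq2 without tamoxifen 1 called 2, Ddx58 at an adjusted p of 0.000166 and Ikbke at 0.00873, where 0.967% of its genes passed. Ddx58, which encodes the RNA sensor RIG-I and is an ISG, had 461, 572 and 398 normalized counts in oil against 814, 870 and 787 in tamoxifen. Ikbke, an IRF kinase, had 251, 282 and 270.2 in oil and 845, 408 and 421 in tamoxifen. Traf3, an adaptor of these kinases, had 1434, 1406 and 1436 in oil and 2542, 1685 and 1864 in tamoxifen. These were the 3 genes of the list with the smallest p, and the list's median log2 fold change was -0.01, beside -0.02 for all tested genes. The 21 interferon genes listed, among them the type I interferons that Irf3 and Irf7 drive, were at or near 0: 17 had no read in any library, including Ifnb1 and the type II interferon Ifng, and the summed level was 0.965 to 2.69 normalized counts in oil and 1.82 to 6.39 in tamoxifen.

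ISGs with ISRE sites are the textbook targets of ISGF3 and Irf7. Of 32 listed, 26 were tested, of which 19 were higher in tamoxifen without overlap and 0 lower. Mx1, Mx2, Rsad2 and Cmpk2 passed the filter only through the tamoxifen libraries, and in the remaining 22 tested genes the groups did not overlap in 15, all higher, with a median log2 fold change of 0.77. Of all tested genes, 7.86% were higher and 9.69% lower without overlap, with a median of -0.02. With all 6 libraries, 12 of these 22 had an unadjusted p under 0.05 by limma, all higher (3.23% of all tested genes), and DESeq2 called 6, all higher (0.293% of its genes in either direction). Without tamoxifen 1, 6 of the 22 rose by limma, namely Ifit1, Isg15, Oas3, Oasl2, Rtp4 and Dhx58, and 0 fell, beside 0.333% of all tested genes in either direction. Ifit1, which binds foreign RNA caps, had 32.3, 39.6 and 25.1 normalized counts in oil and 298, 226 and 236 in tamoxifen, and its log2 fold change was 2.95, or 2.82 with an adjusted p of 0.00183 without tamoxifen 1. Mx1, a GTPase against viruses, had 5.39, 9.65 and 2.79 in oil and 44.7, 49.5 and 50.02 in tamoxifen. Rsad2, which encodes viperin, had 1.80, 2.89 and 1.86 in oil and 29.4, 24.2 and 15.5 in tamoxifen. Among the 22 not filtered through tamoxifen alone, 2 had a log2 fold change below 0 with all libraries (6340 of 12298 tested genes). These were Ifit2 at -0.68 and Eif2ak2 at -0.27, named after their values were seen. Without tamoxifen 1, Ifit2 was at -0.19 and Eif2ak2 at 0.34. The median of the 22 was then 0.54, beside -0.02 for all tested genes.

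Among 18 genes of antigen presentation and the interferon gamma response that Irf1 is known to drive, 14 were tested. Of these, 8 were higher and 0 lower without overlap, beside 7.86% and 9.69% of all tested genes. Without tamoxifen 1, 8 were higher and 1 lower without overlap, beside 12.6% and 16.8% of all tested genes. With all libraries 5 had an unadjusted limma p under 0.05, all higher (3.23% of all tested genes), and DESeq2 called 1, Gbp3 (0.293% of its genes). Without tamoxifen 1 limma called 1 of the 14, beside 0.333% of all tested genes: Socs1, a feedback inhibitor of JAK kinases, rose by 0.61 on the log2 scale with an adjusted p of 0.0426. Socs1 had 1002, 921 and 1082 normalized counts in oil and 3328, 1440 and 1619 in tamoxifen. Gbp3 and Gbp2, interferon-induced GTPases, had log2 fold changes of 1.36 and 0.92, or 1.10 and 0.73 without tamoxifen 1. The median of the list was 0.50 and dropped to 0.18 without tamoxifen 1, beside -0.02 for all tested genes in both.

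Of 6 regulators that bind Irf2 or Irf3, all 6 were tested and 4 were higher without overlap (7.86% of all tested genes), while 0 had an unadjusted limma p under 0.05 and DESeq2 called 0. The corepressor gene Irf2bpl had 1338, 1328 and 1293 normalized counts in oil and 3764, 1440 and 1706 in tamoxifen. Irf2bp2, a second corepressor gene, had log2 fold changes of 0.59 and 0.18 with and without tamoxifen 1, and Trim21, a ubiquitin ligase gene, of 0.29 and 0.18. Without tamoxifen 1, 4 were higher without overlap and 1, Irf2bp1, was lower, beside 12.6% and 16.8% of all tested genes. The median of this list was 0.45 with all libraries and 0.15 without tamoxifen 1. Of 12 partners of Irf4 and Irf8, 8 were tested, and in each of them the groups overlapped. Batf, Junb and Etv6 had the smallest p, with log2 fold changes of 0.60, 0.90 and 0.16, or 0.46, 0.36 and 0.15 without tamoxifen 1. Of 11 Irf8 targets, 8 were tested, of which 1, Nf1, was lower without overlap (9.69% of all tested genes) and 0 were higher. DESeq2 called 0 genes of either list, and 0 had an unadjusted limma p under 0.05. Blnk, Cst3 and Asah1 had log2 fold changes of -0.85, -0.49 and -0.43, or -0.28, -0.12 and -0.09 without tamoxifen 1.

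**Figure D4:**
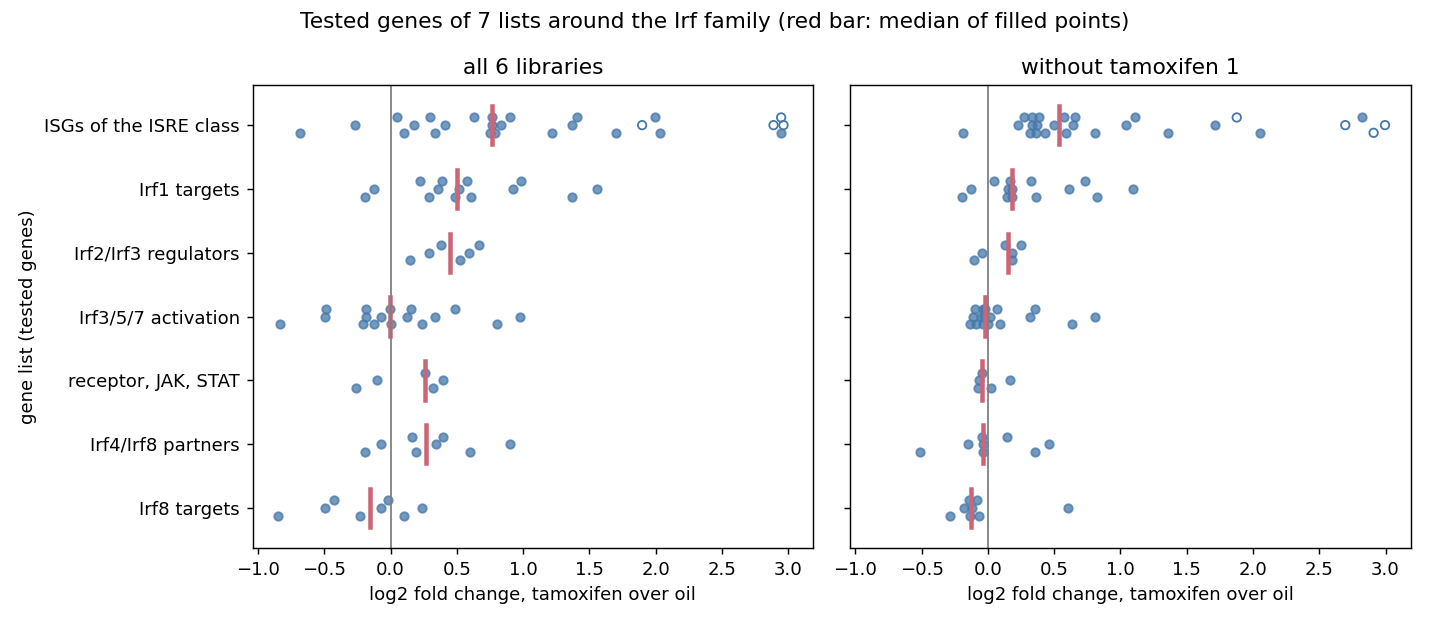
Log2 fold changes of tamoxifen over oil (horizontal axes) of the tested genes of 7 lists around the Irf family (rows), with all 6 libraries (left) and without tamoxifen 1 (right); open points are genes that passed the filter only through the tamoxifen libraries, and red bars are medians of the filled points. The ISG list has medians of 0.77 and 0.54 over its 22 filled points, and the Irf1 targets of 0.50 and 0.18.

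The genes whose log2 values followed a member most closely over the 6 libraries were taken among 10168 genes with a mean of 50 or more. For Irf7 these were Oasl2, an ISG, with a Pearson r of 0.994, and Jade1 with 0.991. For Irf9 they were Mdm2 with 0.990 and Ddx58 with 0.987. For Irf1 they were Gemin5 and Brd1, for Irf2 Ttc37 and Zfp995, for Irf3 Gm4332 and Adnp, and for Irf5 Adap1 and Acot2, each with an r of 0.994 or more. Gm4332 and Adnp followed Irf3 through tamoxifen 1, with 299 and 690 normalized counts there against 78.2 to 105 and 166 to 226 in the other libraries. With 6 libraries of which 1 stood apart, these values describe likeness in these libraries alone.

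Other cell types express several members at high level, and their markers were read in the same libraries. In bulk samples, fewer cells of a type and less RNA per cell cannot be told apart. Of all tested genes, 7.86% were higher in tamoxifen without overlap. Of 12 macrophage markers, 5 were higher without overlap, 4 of them among the 7 tested. The summed level of the 12 was 514 to 638 normalized counts in oil and 344 to 785 in tamoxifen. Csf1r stood at 10.6 to 22.5 in oil and 31.8 to 44.5 in tamoxifen, and Adgre1 (F4/80) at 0.929 to 6.75 and 3.83 to 11.1. Of 8 neutrophil markers, 5 were higher without overlap, with a summed level of 14.4 to 27.0 in oil and 40.0 to 67.7 in tamoxifen. These 5 were too low for the test. Only 1 of the 8 was tested, and its log2 fold change was -1.47, or -0.30 without tamoxifen 1. Siglech, which defines plasmacytoid dendritic cells, the main Irf7-rich cell type, was at 0 in 5 libraries and 0.909 in tamoxifen 3. Of the 7 markers of that list 1 was higher without overlap, but 0 of the 3 tested. The summed level of the 7, at 5745 to 7154 in oil and 2786 to 7689 in tamoxifen, was mostly Ly6d. Of 5 conventional dendritic cell markers, 0 were separated, Clec9a and Cd209a were at 0 in all libraries, and the summed level was 85.3 to 130.2 in oil and 83.9 to 174 in tamoxifen.

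Lymphoid markers bear on Irf4. The counts without overlap in this paragraph stand beside 7.86% of all tested genes higher. Ms4a1 of the B cell list was at 0 in all libraries. The 6 B cell markers summed to 4.64 to 9.65 normalized counts in oil and 6.06 to 24.3 in tamoxifen, with 1 higher without overlap and 0 tested. The 8 plasma cell markers summed to 1977 to 2228 in oil and 2323 to 4487 in tamoxifen, with 2 higher without overlap among the 4 tested. Immunoglobulin transcripts of Igha stood at 313 and 187 in tamoxifen 1 and 2 and at 5.39 to 12.5 in the other libraries, and Irf4 had 0 and 1 reads in those 2 libraries. Of 7 T cell markers 0 were higher without overlap, with Cd3e and Cd8a at 0 in all libraries. Of 6 NK cell markers 1, Nkg7, was tested and was higher without overlap, with the other 5 at 0 throughout. The part of macrophages, neutrophils and plasma cells in the differences of Irf5, Irf7 and Irf8 was not tested.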

How the data were processed

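The 6 libraries, 3 of oil and 3 of tamoxifen, were grouped by their labels. The authors ran STAR and DESeq2, and the submitters' notes name mm10. Annotation and strand setting are not given in the sources used here. The labels name a DNA library kit. The deposited table is called counts but holds a normalized signal, read counts that had been scaled by library size factors. All values above 0 (100% in each library) were whole multiples of 1 step, within 0.1, which gave back the reads. In tamoxifen 2 the step was 1.01, too near 1 for an automatic test. Of 55450 rows, 1832 had no gene name (0.0400% to 0.0614% of reads) and were left out. The results of some genes are not reported here.

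limma (version 3.58.1, R 4.3.3) was run on log2(value + 1) with a mean-variance trend, for 12298 genes with 10 or more in at least 3 libraries, with two-sided tests and Benjamini-Hochberg adjustment over all of them. This scale understates the change of low genes. edgeR (version 4.0.16) and DESeq2 (version 1.42.0) on recovered reads were alternatives, as were other scalings, pseudocounts and filters, a GC correction (loess, span 0.3), library weights, the replicate block and each library left out. Coordinates, exon lengths and GC content came from GENCODE vM21 (GRCm38). On simulated data with 200 of 12298 genes changed by 2 on the log2 scale, limma recovered 96% with 15 false calls. The simulated libraries shared 1 dispersion of 0.05, and none stood apart as tamoxifen 1 did. The recovered share therefore does not carry over to these libraries. The members, lists and tests were chosen with earlier results of these data known. Genes named were the members, Usp18, the listed receptor, kinase and STAT genes, up to 3 per list by smallest p, the 2 most like genes per member, and markers. Intervals and floors cover counting error only, as the reads carry no molecular identifiers.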

Additional observations from a re-analysis of the deposited data

How the results depend on the processing

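Irf1, Irf5, Irf7 and Irf9 kept their direction under all 21 alternatives, with log2 fold changes of 0.40 to 1.02, 0.17 to 0.50, 1.52 to 2.01 and 0.29 to 0.42. The number of members past an adjusted p of 0.05 was 0 in most settings and 1, Irf7 each time, with DESeq2, with library weights (log2 fold change 1.52, adjusted p 0.000155), without tamoxifen 1 (1.61), and, chosen after seeing the data, with DESeq2 (1.61, adjusted p 5.9e-18) or edgeR (1.61, adjusted p 0.00185) without tamoxifen 1. With each library left out in turn the number ran from 0 to 1. Over all genes the number was 0 with all libraries (550 at an unadjusted p under 0.05), 71 with DESeq2, 2 with the GC correction, 782 with library weights, 0 to 41 with a library left out, and 230 and 46 with DESeq2 and edgeR without tamoxifen 1. With a library left out in turn, Irf3 ran from -0.22 to 0.43 and Irf2 from -0.073 to 0.020. Irf3 turned negative with the GC correction, with or without the replicate block (-0.045), library weights (-0.25), without tamoxifen 1 (-0.22), and by DESeq2 and edgeR without it (-0.21 and -0.20). Irf2 turned positive with upper-quartile scaling (0.032), the GC correction with or without the replicate block (0.11), library weights (0.0049), without tamoxifen 1 (0.020), and by DESeq2 and edgeR without it (0.033 and 0.039). Usp18 passed with library weights alone (0.52, adjusted p 0.0348). The cause was not tested. The replicate block gave 0 genes, 0 members and 426 genes at an unadjusted p under 0.05. Deviations of same-numbered libraries from their group means correlated at -0.02, 0.06 and -0.15. These values showed no pairing by number, but with 3 libraries per group they cannot exclude it. Members higher without overlap numbered 4 with all libraries, 3 with the GC correction, 5 with upper-quartile scaling, and 4 to 5 with a library left out (5 without oil 1 or tamoxifen 2). Members lower without overlap numbered 0 to 1 with a library left out. Genes higher without overlap, with a library left out, numbered 0 to 2 for the receptor and STAT list and 0 to 2 for the partners of Irf4 and Irf8. For the targets of Irf8 they numbered 0 to 1, and 1 with no filter on low values. The share of all tested genes without overlap was computed only with all libraries and without tamoxifen 1. Only upstream bases gave the same members with each motif. Depth limits Irf4 and Irf8. Protein comparisons were not run.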

Other observations

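Mast cell and basophil genes were also read in these libraries. Of 6 mast cell and basophil genes, 2 were higher in the libraries labelled tamoxifen without overlap and 1 was lower, beside 7.86% and 9.69% of all tested genes. Without tamoxifen 1, 2 of the 6 passed an adjusted p of 0.05 by limma, Cpa3 and Gzmb, both higher, beside 0.333% of all tested genes. Gzmb, which encodes granzyme B, had 5.39, 6.75 and 6.50 normalized counts in oil and 83.1, 71.7 and 74.6 in tamoxifen. It passed the filter on low values only through the tamoxifen libraries, so its pass is no support for a difference. Cpa3, a mast cell protease gene, had 3823, 3992 and 4174 in oil and 4074, 7774 and 9431 in tamoxifen, and its log2 fold change was 0.74 (adjusted p = 0.666 by limma), or 1.10 (adjusted p = 0.00183) without tamoxifen 1. Ms4a2, a chain of the high-affinity IgE receptor, was lower in tamoxifen, with 17754, 19301 and 19161 in oil and 2965, 16499 and 14036 in tamoxifen. These genes were named after their values were seen.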
